A study of Mus musculus with 6 samples.

Results

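The genes described here are 8 genes of fatty acid oxidation that are regulated in liver by the nuclear receptor PPARalpha: Cpt1a, Cpt2, Acadl, Acadm, Hadha, Ehhadh, Acot1 and Pdk4. They were chosen by name, and all 8 were measured, out of 9319 genes that could be named on the arrays. Of these, 5 carried a symbol or RefSeq accession in the scanner files. The probes of Cpt1a, Acadl and Hadha were named from the protein names in their descriptions, and the Hadha description is that of a rat homolog.

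Fatty acids are burned mainly in mitochondria. The carnitine shuttle carries long-chain acyl groups across the mitochondrial membranes, and beta-oxidation then shortens them by repeated rounds of dehydrogenation, hydration, a second dehydrogenation and thiolysis. Peroxisomes shorten the chains that mitochondria handle poorly, and microsomal Cyp4a enzymes oxidise the far end of the chain. In liver, fatty acids released during fasting bind PPARalpha, which pairs with RXR on repeats of the motif AGGTCA and raises many genes of these routes.

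RNA came from livers of mice 39 weeks old on the C3H/HeNCrlBR(C3He) background. All mice had received diethylnitrosamine (DEN), a carcinogen that starts liver tumours. The groups were wild-type (WT) tumour after DEN and phenobarbital (PB), WT liver after DEN and PB, liver of CAR-knockout mice (CAR-KO) after the same agents, and CAR-KO liver after DEN alone. PB was given in drinking water and promotes liver tumours. CAR, encoded by Nr1i3, is the nuclear receptor through which PB acts in liver. The study sought CAR-regulated genes whose RNA increases as liver tumours develop. No group without DEN and no WT group without PB was analysed here, and the labels do not give the allele, the sex, or the number of animals behind an RNA.

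RNAs were compared on 6 arrays with 2 colours, as 3 pairs of 2 arrays with the dyes swapped. WT liver, PB-treated CAR-KO liver and WT tumour were each set against a CAR-KO liver RNA. The CAR-KO liver after DEN and PB took part in every pair, so the comparisons share it and are not independent of each other. No array set WT tumour against WT liver, so that comparison was the difference between 2 ratios. Each ratio below is a log2 ratio of the RNA named first over the other, after normexp background correction (offset 50) and loess normalization within the array. SE and p come from limma on all 6 arrays with a dye effect, and a call means p under 0.05 after Benjamini-Hochberg adjustment across every probe tested. It is not stated whether the swapped arrays were hybridised with the same extracts, so the p-values measure only the spread between arrays, which may be technical.

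Array 2 of the tumour pair was read with another scanner and had median local backgrounds of 288 and 299 in its dyes, against 53 to 62 on the other arrays. Turned ratios of the 2 arrays correlated across probes with r = 0.391 for the tumour pair, 0.0294 for the WT liver pair and -0.347 for the PB pair. With the dye effect removed the values were 0.648, 0.217 and 0.169. Probes are not independent replicates, so these values are descriptions. Nr1i3 had a log2 ratio of 0.79 ± 0.16 in WT liver over CAR-KO liver (adjusted p = 0.412, limma). In WT tumour over CAR-KO liver it was 1.81 ± 0.16 (adjusted p = 0.00194, limma). The place of its probe relative to the deleted part is not given in the sources used here, so it does not check the labels.

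Promoters of 4 of the genes are shown because PPARalpha acts on DNA near its targets. Acot1 and Pdk4 are the genes that were called, and Cpt1a and Acadm are the genes whose window holds the motif. Each window runs from 250 bases before to 50 bases after the gene's start, from RefSeq on GRCm38.p6, 5′ to 3′ on the gene's strand, with AGGTCA or its reverse complement TGACCT in capitals. The windows are chr12:84009252-84009551 (plus strand, Acot1), chr6:5496229-5496528 (minus strand, Pdk4), chr19:3323051-3323350 (plus strand, Cpt1a) and chr3:153944594-153944893 (minus strand, Acadm).
Acot1: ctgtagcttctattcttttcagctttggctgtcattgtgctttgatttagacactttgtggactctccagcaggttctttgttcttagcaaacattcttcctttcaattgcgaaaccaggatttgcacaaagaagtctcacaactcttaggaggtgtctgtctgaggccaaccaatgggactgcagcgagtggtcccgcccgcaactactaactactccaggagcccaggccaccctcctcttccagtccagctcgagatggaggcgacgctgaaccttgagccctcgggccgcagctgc
Pdk4: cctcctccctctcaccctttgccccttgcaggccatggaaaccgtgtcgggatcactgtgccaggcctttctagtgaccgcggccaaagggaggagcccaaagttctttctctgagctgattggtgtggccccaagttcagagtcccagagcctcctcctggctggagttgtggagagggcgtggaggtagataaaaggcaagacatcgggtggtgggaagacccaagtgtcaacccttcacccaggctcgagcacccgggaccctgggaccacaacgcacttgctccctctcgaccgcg
Cpt1a: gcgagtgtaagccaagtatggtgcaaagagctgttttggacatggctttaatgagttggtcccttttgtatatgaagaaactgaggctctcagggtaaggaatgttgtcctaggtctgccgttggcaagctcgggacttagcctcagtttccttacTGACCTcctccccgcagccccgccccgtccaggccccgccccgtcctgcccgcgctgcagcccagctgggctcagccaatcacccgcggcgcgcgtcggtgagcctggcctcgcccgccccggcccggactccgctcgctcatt
Acadm: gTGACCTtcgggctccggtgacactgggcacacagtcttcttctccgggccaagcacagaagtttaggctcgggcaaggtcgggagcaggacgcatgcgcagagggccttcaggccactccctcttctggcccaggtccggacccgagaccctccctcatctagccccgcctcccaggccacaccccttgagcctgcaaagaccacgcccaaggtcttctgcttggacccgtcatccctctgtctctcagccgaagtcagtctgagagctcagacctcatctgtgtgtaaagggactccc

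All 8 genes had a promoter entry, and AGGTCA was found on either strand in 2 of 8, against 16.3% of 32851 promoters. The Cpt1a match began 94 bases before the start and the Acadm match 249 bases before it. AGGTCA followed by any 1 base and AGGTCA again was in 0 of the 8 windows and in 0.0396% of all promoters. The same repeat with the fourth base of each copy free was in 0 of the 8 and in 0.381% of all. Both strands were searched, and each repeat contains the shorter motif or a form of it. A match is a description of the letters, and a window without one says nothing about PPARalpha.

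In WT tumour, Pdk4 and Acot1 were higher than in CAR-KO liver, while the genes of the mitochondrial carnitine and beta-oxidation steps did not pass the test. The 2 called genes stand beside 3.36% of 20744 probes called in this comparison (2.53% higher and 0.839% lower). Over the 8 genes the median log2 ratio was 0.31, against -0.006 over all probes. The plot of log2 ratios by array shows each gene in the 3 pairs.

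**Figure D1:**
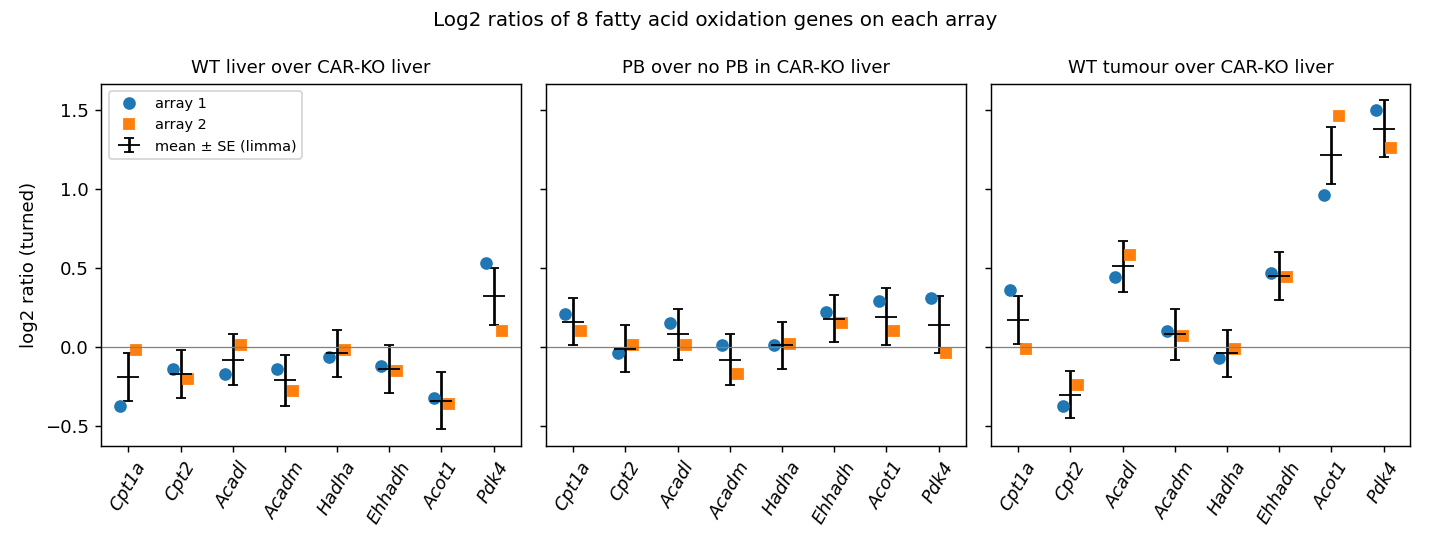
Log2 ratio of each of the 8 genes on array 1 (circles) and array 2 (squares) of each pair, with the mean and its SE from limma (black), after turning each ratio so that the RNA named first is on top. In WT tumour over CAR-KO liver, Acot1 (0.96 and 1.46) and Pdk4 (1.50 and 1.26) lie above the other 6 genes, and in the other pairs the means lie between -0.34 and 0.32.

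Pdk4 encodes a mitochondrial kinase that switches off the pyruvate dehydrogenase complex, which spares glucose while fat is burned. Its normalized signal was 325 and 463 in WT tumour on arrays 1 and 2, against 115 and 193 in CAR-KO liver on the same arrays. Tumour was the higher channel on both arrays, in either dye. The log2 ratio was 1.38 ± 0.18 (SE; 1.50 and 1.26 on the arrays), a fold of 2.60, with a limma adjusted p of 0.00977. The other measured kinases of the complex, Pdk1 at -0.37, Pdk2 at -0.26 and Pdk3 at 0.05, did not pass the test.

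Acot1 encodes a cytosolic thioesterase that splits long-chain acyl-CoA into free fatty acid and CoA. Its normalized signal was 963 and 1980 in WT tumour, against 495 and 717 in CAR-KO liver. The tumour channel was higher on both arrays, and array 2, from the other scanner, gave the larger ratio. The log2 ratio was 1.21 ± 0.18 (SE; 0.96 and 1.46 on the arrays), a fold of 2.31, with a limma adjusted p of 0.0133. Acot1 has close paralogs beside it on the chromosome, and no probe sequence was used here, so signal from a paralog cannot be told apart. The probes of its paralogs Acot2, Acot3 and Acot4 gave 0.23, 0.22 and 0.27, none of which passed the test.

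Acadl and Ehhadh were above 0 on both tumour arrays without passing the test. Acadl encodes the long-chain acyl-CoA dehydrogenase, and its signal was 652 and 1550 in WT tumour, against 482 and 1040 in CAR-KO liver. Its log2 ratio was 0.51 ± 0.16 (adjusted p = 0.127, limma). Ehhadh encodes the bifunctional enzyme that carries out the hydratase and dehydrogenase steps in peroxisomes. Its signal was 844 and 1890 in WT tumour, against 611 and 1400 in CAR-KO liver, and its log2 ratio was 0.45 ± 0.15 (adjusted p = 0.142, limma). The tumour channel was the higher one on both arrays for each of these genes. The plot of signals shows the channels array by array.

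**Figure D2:**
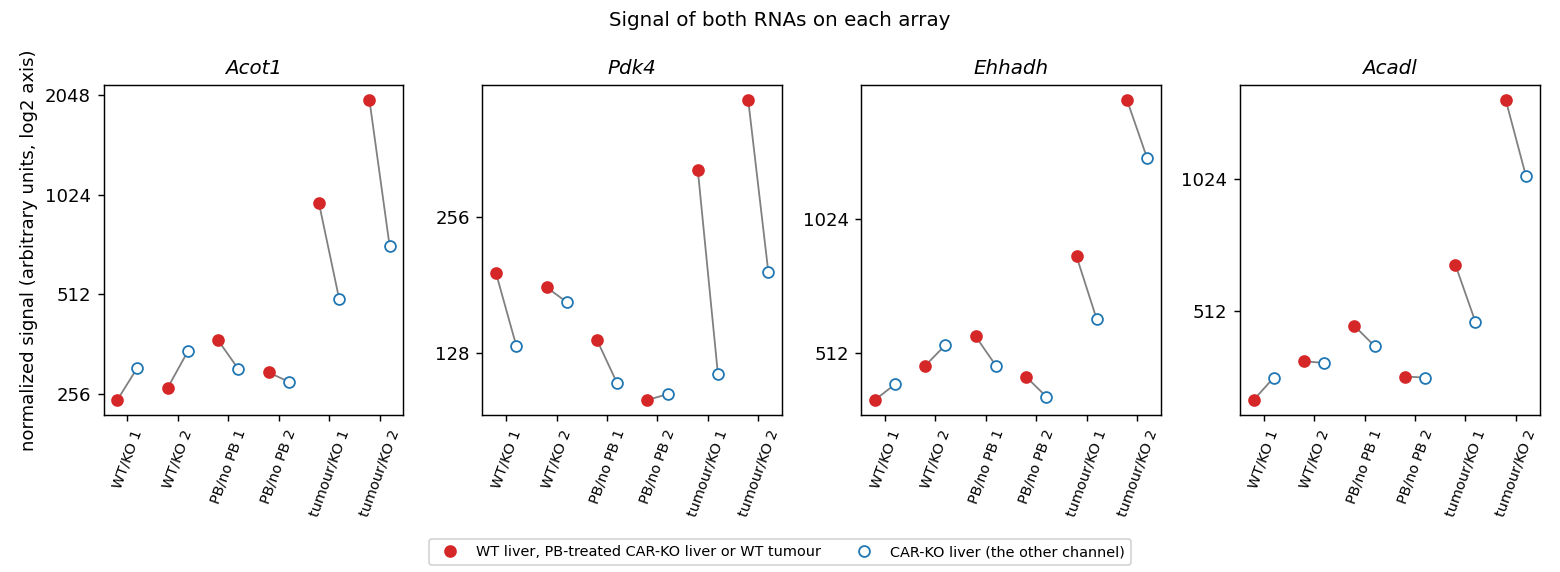
Normalized signal (arbitrary units, log2 axis) of Acot1, Pdk4, Ehhadh and Acadl in both RNAs of each array, joined by a line, with WT liver, PB-treated CAR-KO liver or WT tumour on the left (filled) and the CAR-KO liver of the other channel on the right (open). All 4 genes have the tumour channel above the CAR-KO channel on both tumour arrays. Signals of different probes are not comparable.

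The acyltransferases of the carnitine shuttle did not pass the test. Cpt1a encodes the liver carnitine palmitoyltransferase of the outer mitochondrial membrane, which commits long-chain acyl groups to import. Its log2 ratio in WT tumour over CAR-KO liver was 0.17 ± 0.15, with 0.36 on array 1 and -0.01 on array 2 (adjusted p = 0.523, limma). The arrays differed in sign, although the Cpt1a probe is spotted 10 times on each array with an SD of 0.07 over the spots on each of these. Cpt2, the inner-membrane partner that rebuilds acyl-CoA, was at -0.30 ± 0.15 (-0.37 and -0.24, adjusted p = 0.268, limma). Its signal was 2210 and 4310 in WT tumour, against 2850 and 5080 in CAR-KO liver, lower in tumour on both arrays.

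Acadm and Hadha act in the mitochondrial cycle itself and were close to 0. Acadm, the medium-chain acyl-CoA dehydrogenase, had a log2 ratio of 0.08 ± 0.16 (0.10 and 0.07, 95% interval -0.28 to 0.45, adjusted p = 0.777, limma). Hadha, the alpha subunit of the trifunctional protein, was at -0.04 ± 0.15 (-0.07 and -0.01, 95% interval -0.39 to 0.31, adjusted p = 0.891, limma). The Hadha probe read between 92.5 and 208 in all channels, an offset of 50 included, which narrows any ratio it can show. It was nevertheless well above background in all 12 channels, as were the probes of the other 7 genes.

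How far these calls hold depends on the processing. Pdk4 was called in 13 of 17 alternatives, with adjusted p from 0.00122 to 0.190, and Acot1 in 13 of 17, with adjusted p from 0.00167 to 0.223 (limma). With array medians centred in place of loess, 6 of the 8 were called, beside 4133 of 20744 probes. The median of the 8 was then 0.84. The 9284 probes as bright as the dimmest of the 8 genes other than Hadha then had a median of 0.26, against 0.02 after loess.

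In WT liver over CAR-KO liver, 0 of the 8 genes were called, beside 0.101% of 20743 probes (0.0916% higher and 0.00964% lower), and 0 had an unadjusted p under 0.05 (limma). Their log2 ratios ran from -0.34 to 0.32, with 7 of 8 below 0 and a median of -0.15, against -0.015 over all probes. Every adjusted p was 1.

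Acot1 was at -0.34 ± 0.18 in this comparison (-0.32 and -0.36 on the arrays). Its signal was 245 and 267 in WT liver, against 307 and 344 in CAR-KO liver, so WT was the lower channel in both dyes. Pdk4 was at 0.32 ± 0.18 (0.53 and 0.10), with 192 and 179 in WT liver, against 133 and 166 in CAR-KO liver. The WT channel was the higher one on both arrays, by unequal amounts. Ehhadh gave -0.14 ± 0.15 (-0.12 and -0.15) and Acadl -0.08 ± 0.16 (-0.17 and 0.01). Acadm, at -0.21 ± 0.16, and Cpt2, at -0.17 ± 0.15, were below 0 on both arrays. Cpt1a, at -0.19 ± 0.15, came mostly from array 1 (-0.37, against -0.02 on array 2), and Hadha was at -0.04 ± 0.15. No interval excluded 0, and the widest, that of Pdk4, ran from -0.12 to 0.75.

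PB in CAR-KO liver, which lacks CAR, gave 0 calls among the 8 genes and in 0% of 20742 probes. None of the 8 had an unadjusted p under 0.05 (limma), and 565 of all probes did. Their log2 ratios ran from -0.08 (Acadm) to 0.19 (Acot1), with 6 of 8 above 0 and a median of 0.11, against -0.008 over all probes.

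Acot1 was at 0.19 ± 0.18 (0.29 and 0.10), with signals of 371 and 297 in PB-treated CAR-KO liver, against 304 and 278 without PB. Ehhadh was at 0.18 ± 0.15 (0.22 and 0.15), with signals of 559 and 454 with PB, against 481 and 410 without. Both genes were higher with PB on both arrays, by less than their error allows to call. Cpt1a was at 0.16 ± 0.15 and Pdk4 at 0.14 ± 0.18, whose arrays differed in sign (0.31 and -0.04). Acadl at 0.08, Acadm at -0.08, Hadha at 0.01 and Cpt2 at -0.01 lay closest to 0.

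WT tumour over WT liver, taken indirectly, had Acot1 at the top with a log2 ratio of 1.55 ± 0.25 (95% interval 0.97 to 2.13) and a fold of 2.93. Its unadjusted p was 0.000319 and its adjusted p 0.213 (limma). Pdk4 followed at 1.06 ± 0.26 (adjusted p = 0.372), Ehhadh at 0.59 ± 0.21 and Acadl at 0.58 ± 0.22. In all, 0 of 8 genes were called, as was 0% of 20743 probes, while 4 of the 8 and 1737 of all probes had an unadjusted p under 0.05 (limma). Without tumour array 1, 1 of the 8 was called, beside 194 of 20738 probes. Without tumour array 2, 2 of the 8 were called, beside 2164 of 20728 probes.

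Other genes of these routes moved in both directions in WT tumour over CAR-KO liver. Of 101 further genes on 10 lists, 81 were measured, and 4 were called higher and 4 lower, which is 9.88% beside 3.36% of all probes. Their median log2 ratio was 0.04. The lists were drawn up by role with earlier results of these data known. The plot of lists by role shows the values.

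**Figure D3:**
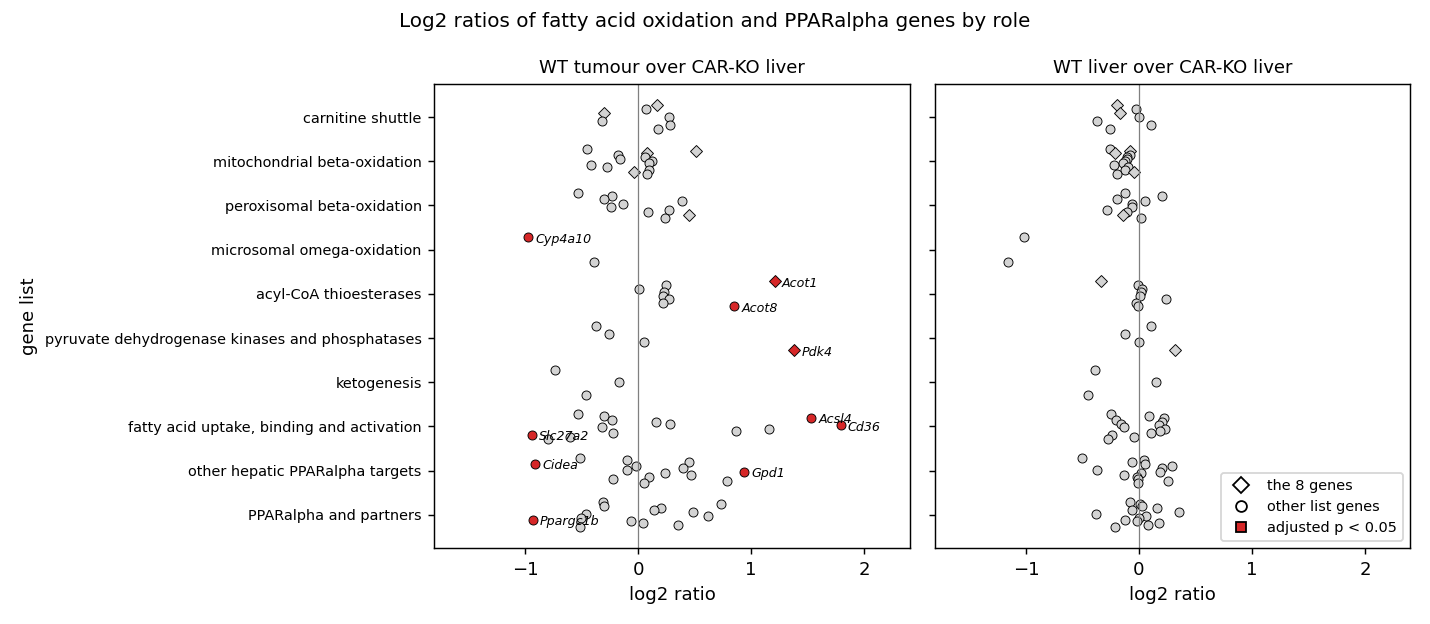
Log2 ratio of each measured gene on 10 lists by role (rows), in WT tumour over CAR-KO liver (left) and WT liver over CAR-KO liver (right). Diamonds are the 8 genes, circles the other list genes, and red marks an adjusted p under 0.05 (limma). In the tumour comparison 10 genes are red, 6 above and 4 below 0, and in the WT liver comparison 0 are red.

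Uptake and activation of fatty acids held the largest increases on these lists. Cd36, a membrane receptor that takes up fatty acids, was at 1.79 ± 0.20 (1.90 and 1.68, adjusted p = 0.00425, limma). Acsl4, an acyl-CoA synthetase that prefers arachidonic acid, was at 1.53 ± 0.16 (1.38 and 1.68, adjusted p = 0.00305, limma). Slc27a2, a very-long-chain acyl-CoA synthetase and fatty acid transporter, was lower at -0.94 ± 0.18, with unequal arrays of -1.51 and -0.36 (adjusted p = 0.0413, limma). Of the 14 genes on this list, 2 were called higher and 1 lower, and 8 were below 0.

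The means of all 8 measured acyl-CoA thioesterases were above 0. The arrays differed in sign for Acot13 (0.26 and -0.25) and Acot2 (-0.19 and 0.66). Besides Acot1, 1 of 7 was called higher, Acot8, beside 2.53% of all probes. Acot8, a peroxisomal thioesterase, was at 0.85 ± 0.15 (0.88 and 0.81, adjusted p = 0.0317, limma). Gpd1, the cytosolic glycerol-3-phosphate dehydrogenase, was at 0.94 ± 0.19 (adjusted p = 0.0452, limma). Cidea, a lipid droplet protein, was lower at -0.91 ± 0.16 (adjusted p = 0.0247, limma), and so was Ppargc1b, a coactivator of PPARalpha, at -0.93 ± 0.16 (adjusted p = 0.0261, limma). Ppara itself was at -0.46 and did not pass the test (adjusted p = 0.431, limma). Of 17 alternatives, Cyp4a10 was called in 7, Acot8 in 8, Slc27a2 in 6, Gpd1 in 6, Ppargc1b in 8 and Acsl4 in 15. Of 16 alternatives, Cidea was called in 5 and Cd36 in 14. With an array left out, Cd36 ran from 1.75 to 1.83, Acsl4 from 1.41 to 1.66, Acot1 from 0.92 to 1.50 and Pdk4 from 1.24 to 1.51. A fit without a tumour array rests on the other one, so it cannot test whether the tumour arrays agree.

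The lists of the core steps had 0 calls in tumour, by limma. In the carnitine shuttle, 7 genes were measured, and the largest values outside Cpt1a and Cpt2 were Crot, a peroxisomal carnitine acyltransferase, at -0.32, and Slc22a5, the carnitine transporter, at 0.28. In mitochondrial beta-oxidation, 13 genes were measured with a median of 0.06. Acaa2, the last thiolase of the cycle, was at -0.45, and Etfa, an electron acceptor of the dehydrogenases, at -0.42. In peroxisomal beta-oxidation, 10 genes were measured with a median of -0.02. Its largest values besides Ehhadh were Abcd2, a peroxisomal fatty acid transporter, at -0.53 (-1.17 and 0.12 on the arrays, and 0.09 with a second probe), and Acox2, an oxidase of branched chains, at 0.39. On the ketogenesis list, Acat1, a mitochondrial thiolase, was at -0.73 (adjusted p = 0.0569, limma).

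Cyp4a10 and Cyp4a14 encode fatty acid omega-hydroxylases and are textbook PPARalpha targets in mouse liver. In WT tumour over CAR-KO liver their signs were opposite to those of Acot1 and Pdk4, except that Cyp4a14 was at 0.05 with median centring. The list of other hepatic PPARalpha targets was mixed there. Of its 14 measured genes, 8 were above 0 and 6 below, with a median of 0.08. Cyp4a10 was lower in WT tumour than in CAR-KO liver, at -0.97 ± 0.16 (-0.92 and -1.02, adjusted p = 0.0191, limma). A second Cyp4a10 probe gave -0.67 ± 0.17 and missed the threshold (adjusted p = 0.0810, limma). Cyp4a14 was at -0.39 ± 0.17 (adjusted p = 0.222, limma).

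In WT liver over CAR-KO liver, Cyp4a10 was at -1.02 ± 0.16 (-1.16 and -0.87, adjusted p = 0.136, limma) and Cyp4a14 at -1.16 ± 0.17 (-1.08 and -1.24, adjusted p = 0.120, limma). In CAR-KO liver with PB over no PB, Cyp4a10 was at 0.68 ± 0.16 (0.88 and 0.47) and Cyp4a14 at 0.92 ± 0.17 (1.15 and 0.70), each with an adjusted p of 1 (limma). Both genes thus sat below 0 wherever the PB-treated CAR-KO liver was the other channel, and above 0 where it was the RNA named first. That RNA is shared by all the pairs, so the values are not independent. In both of these comparisons Acot1 had the sign of the Cyp4a genes, at -0.34 and 0.19. Pdk4, at 0.32 and 0.14, had their sign only in PB over no PB. Neither Acot1 nor Pdk4 was called in these comparisons. In WT tumour over WT liver, taken indirectly, Cyp4a14 was at 0.77 (adjusted p = 0.543, limma) and Cyp4a10 at 0.05 (adjusted p = 0.953, limma), on the same side of 0 as Acot1 at 1.55 and Pdk4 at 1.06. The Cyp4a genes are close paralogs, and cross-hybridisation between them was not tested.

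**Figure D4:**
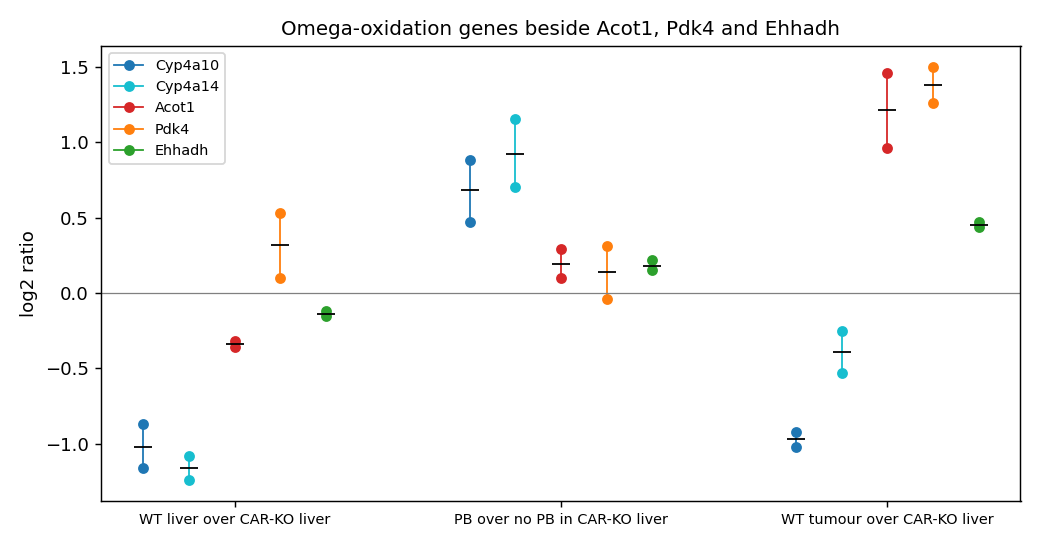
Log2 ratios of Cyp4a10, Cyp4a14, Acot1, Pdk4 and Ehhadh in the 3 pairs, with 1 point per array joined by a line and the mean as a dash. In WT tumour over CAR-KO liver, Acot1 and Pdk4 have all points at or above 0.96 and Cyp4a10 has both points at or below -0.92. In WT liver over CAR-KO liver both Cyp4a genes lie at or below -0.87.

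Genes whose pattern was most like that of the called genes were found by Euclidean distance over the dye-corrected log2 ratios of 6 arrays, among 7549 genes. For Pdk4 they were Btg3 at a distance of 0.24, Lgals1 at 0.37 and Sparc at 0.38. For Acot1 they were Vim at 0.62, Rtn4 at 0.63 and Arl6ip5 at 0.66.

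Markers of cell types moved with the tumour comparison too. The 7 measured hepatocyte markers were well above background in all 12 channels, so each RNA carried them. Of 7 measured hepatocyte markers, Alb at -1.03 (adjusted p = 0.0212) and Tat at -1.01 (adjusted p = 0.0255) were lower by limma, and the median of the 7 was -0.26, with values from -1.08 (Fga) to 0.02 (Apob). In the tumour comparison the arrays differed in sign for Apob (-0.73 and 0.77) and Apoa1 (-0.68 and 0.43). In WT liver over CAR-KO liver the means of all 7 were below 0, with 0 called and a median of -0.28. There the arrays differed in sign for Alb (0.57 and -0.77), Apoa1 (0.20 and -0.48) and Hnf4a (-0.10 and 0.07). The others were below 0 on both arrays. In bulk RNA, fewer cells of a type and less RNA per cell cannot be told apart.

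Pdk4 is abundant in muscle, and 9 skeletal muscle markers were measured. Of these 4 were called lower in WT tumour than in CAR-KO liver and 0 higher, beside 0.839% of all probes called lower. The lowest were Tnnc2 at -1.83 (adjusted p = 0.00163) and Mylpf at -1.25 (adjusted p = 0.00612) by limma. Tnnc2 was also called lower in WT liver than in CAR-KO liver, at -1.78. Ucp1 was lower at -1.37 (adjusted p = 0.0122, limma), the 1 call among 5 heart and brown fat genes. The median of the 9 muscle markers was -0.05, and Eno3 at 0.33, Pvalb at 0.15, Actn3 at 0.11 and Tnnt3 at 0.03 were above 0, without passing the test. In PB over no PB in CAR-KO liver, Tnnc2 was at 1.78 and Mylpf at 0.89, with 7 of the 9 above 0 and 0 called. In WT tumour over WT liver, taken indirectly, Tnnc2 was at -0.05 and Mylpf at -0.38, with 0 called. The PB-treated CAR-KO liver RNA is shared by all the pairs, so these values are not independent.

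Cd36 is also made by fat cells, macrophages and endothelium. Of 7 adipocyte markers, Lpl was called higher at 1.97 (adjusted p = 0.00341, limma), while Adipoq was at -0.21 and the median was -0.21. Of 4 cholangiocyte markers, Krt19 was higher at 1.13 (adjusted p = 0.0135, limma), and of 3 stellate cell markers, Dcn was lower at -1.34 (adjusted p = 0.0159, limma). The 5 endothelial, 4 macrophage, 5 lymphocyte markers and the 1 acinar marker had 0 calls by limma, with medians of -0.05, 0.34, 0.05 and 0.19. The part of any cell type in the values of the 8 genes was not tested. Genotype and tissue differ at once between WT tumour and CAR-KO liver, so their effects cannot be told apart.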

How the data were processed

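RNA of mouse liver and liver tumour was measured on 6 Agilent 2-colour arrays. Scanner intensity values (mean signal and local background median per spot) are as deposited by the authors. The deposited processed intensity values were background-subtracted and dye-normalized within the array, per the file headers. Their red over green quotient was deposited as a log10 ratio, which the value table repeats (largest difference 0). Other deposited columns flag spots. The software was Feature Extraction 7.1.1, except 7.5.1 for array 2 of the tumour pair, per the file headers, while the submitters' processing notes name 7.5.

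Ratios were recomputed in R 4.3.3 with limma 3.58.1: normexp (offset 50), loess with control and outlier spots at weight 0, spots averaged per probe, then lmFit and eBayes with 3 contrasts and a dye effect (2 residual and 5.48 prior degrees of freedom). Of 20868 probes, 20744 were tested, with at least 1 channel well above background on at least 2 arrays. Tests were 2-sided. The number of arrays limits the precision. Of the probes, 9454 were named: 8123 by RefSeq accession, 398 by symbol, 908 by older symbol and 25 from the protein name in the description, which were read after the files were seen and before their ratios. A gene with several probes is given by its brightest one.

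The genes, lists and markers were chosen with earlier results of these data known. Named genes are the 8, the list genes called in a comparison, in lists without a call the 2 largest by absolute log2 ratio, and the 3 nearest in pattern to each called gene. Ppara, the Acot and Pdk paralogs, the named markers and Nr1i3 were named for context. The result of 1 further gene that this rule names is not reported here. Alternatives changed the background correction, the offset, the normalization, array weights, the dye effect, the arrays fitted, the filter, the use of several probes, the variance model, and left out each array. The fit was tested on simulated data. Figures were drawn with matplotlib 3.10.9. The labels give no replicate numbers.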

Additional observations from a re-analysis of the deposited data

Results flagged for a closer look

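Acot1, Ehhadh and Acadm were below 0 on both arrays of WT liver over CAR-KO liver and above 0 on both arrays of WT tumour over CAR-KO liver. The difference between these ratios is the indirect log2 ratio of WT tumour over WT liver, which was 1.55 for Acot1, 0.59 for Ehhadh and 0.29 for Acadm. The limma adjusted p of that difference was 0.213, 0.583 and 0.677 for these genes in the same order, so none was called. Groups of 2 arrays are too small to look for an outlying array.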

How the results depend on the processing

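Of the 8 genes, 0 were called under all 17 alternatives in WT liver over CAR-KO liver and in PB over no PB. Set against CAR-KO liver, WT tumour had 2 calls, against 0 with the signals processed by the Agilent software, 0 with an offset of 10, 0 with array weights, 0 with only the arrays of the comparison and 6 with median centring. The array weights were 0.493 for each tumour array, 1.89 for each WT liver array and 1.07 for each PB array. With any 1 array left out, Acot1 ran from 0.92 to 1.50 and Pdk4 from 1.24 to 1.51. Without a tumour array the fit cannot test whether the tumour arrays agree. In WT tumour over WT liver, 0 were called, against 1 with median centring and 0 to 2 with an array left out. Over all probes that comparison had 0 calls, against 47 with median centring, 194 without tumour array 1 and 2164 without tumour array 2. The cause was not tested.

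Some values changed sign, none of them called under either setting. With median centring, Cpt2 was at 0.24 (PB), 0.35 (tumour over CAR-KO) and 0.64 (tumour over WT liver), Acadm at 0.17 (PB) and Cyp4a14 at 0.05 (tumour over CAR-KO). With an offset of 10, Cpt2 was at 0.03 (PB) and Hadha at 0.01 (tumour over WT liver). With the Agilent signals, Hadha was at 0.02 (tumour over CAR-KO) and 0.14 (tumour over WT liver). With arrays left out, WT liver over CAR-KO liver ran from -0.17 to 0.01 for Acadl and from -0.04 to 0.67 for Pdk4. PB over no PB ran from -0.04 to 0.01 for Cpt2, from -0.20 to 0.04 for Acadm, from -0.04 to 0.42 for Acot1 and from -0.09 to 0.36 for Pdk4. Tumour over WT liver ran from -0.05 to 0.03 for Hadha and from -0.08 to 0.17 for Cyp4a10.

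Calls over all probes in tumour over CAR-KO were 698 (75.1% higher), against 0 with the Agilent signals, 230 with an offset of 10, 236 with array weights, 62 with only its own arrays and 4133 (57.3% higher) with median centring. They numbered 285 without array 1 or 2 of the PB pair, 418 without array 1 or 2 of the WT liver pair, 707 without tumour array 1 and 4708 (38.2% higher) without tumour array 2. In WT liver over CAR-KO, 21 were called, against 0 with the Agilent signals, 6 with an offset of 10, 95 with array weights, 87 with only its own arrays and 4 to 94 with an array left out. Each ratio sets 2 RNAs of the same array against each other. Arrays could not be matched between comparisons, because the labels give them no shared replicate numbers. Signal over background limits Hadha most.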
